A study of Mus musculus with 12 samples.

Results

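The transcription factor NRF2 (gene *Nfe2l2*), its inhibitor KEAP1 and 8 of their antioxidant target genes were followed in control and selenoprotein-deficient macrophages. The 10 genes were taken by symbol (*Nfe2l2*, *Keap1*, *Slc7a11*, *Gclc*, *Gclm*, *Gsr*, *Txn1*, *Srxn1*, *Nqo1* and *Hmox1*). They were represented by 20 of the 45037 non-control probe sets on the arrays, and after 1 probe set was kept per gene they made up 10 of 18193 genes tested.

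Bone marrow-derived macrophages (BMDMs) of female C57BL/6 mice were grown for 7 days in M-CSF, the growth factor that drives monocytes to become macrophages, and were left unstimulated or given lipopolysaccharide (LPS), a TLR4 agonist, for 4 h. Control mice were Trspfl/fl-LysM-Cre-/-, and ΔTrspM mice were Trspfl/fl-LysM-Cre+/-. Both genotypes thus carried floxed alleles of *Trsp*, the gene of the selenocysteine tRNA without which no selenoprotein is made, and the Cre recombinase of ΔTrspM mice came from the lysozyme M locus. That locus is active in macrophages and neutrophils, so other cells in a culture kept *Trsp*, and controls carried no Cre. Each of the 4 groups held 3 arrays labelled as biological replicates, 12 arrays in all, and whether a replicate was 1 mouse or a pool was not given. *Trsp* itself was not analysed here, so the deletion was not checked on these arrays.

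In resting cells KEAP1 holds NRF2 for ubiquitination and destruction. Oxidants and electrophiles modify cysteines of KEAP1, NRF2 then accumulates, pairs with a small MAF protein and binds antioxidant response elements (AREs) in its target genes, while BACH1 competes for the same elements. NRF2 is controlled largely through its protein, so its mRNA need not follow its activity, and the targets supply glutathione and thioredoxin, remove quinones and break down heme. Loss of selenoproteins removes glutathione peroxidases and thioredoxin reductases, which are the oxidant-removing enzymes beside which these targets work.

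Promoters of 4 members are shown because they hold the letters of an ARE core. Windows running from 250 bases before to 50 bases after an annotated start site were found for 7 of the 10 genes (RefSeq, build GRCm38.p6). An ARE core, TGACNNNGC or TGAGNNNGC on either strand, was found in 4 of these 7, *Nfe2l2*, *Gclm*, *Srxn1* and *Slc7a11*, whereas 27.8% of 32851 windows of the same length held one. In the sequences below, written 5′ to 3′ on the gene's strand, capitals mark the matches to the ARE core, to the AP-1 motif TGACTCA and to TGATGNAA, a C/EBP-ATF response element known from amino acid stress.

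*Srxn1*, chr2:152105274-152105573, plus strand: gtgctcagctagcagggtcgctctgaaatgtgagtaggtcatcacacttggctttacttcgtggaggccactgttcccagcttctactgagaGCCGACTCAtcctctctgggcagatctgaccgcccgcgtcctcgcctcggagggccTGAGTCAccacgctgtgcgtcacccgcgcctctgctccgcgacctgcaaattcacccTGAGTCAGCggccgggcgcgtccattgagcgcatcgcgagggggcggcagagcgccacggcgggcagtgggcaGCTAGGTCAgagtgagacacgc

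*Gclm*, chr3:122245307-122245606, plus strand: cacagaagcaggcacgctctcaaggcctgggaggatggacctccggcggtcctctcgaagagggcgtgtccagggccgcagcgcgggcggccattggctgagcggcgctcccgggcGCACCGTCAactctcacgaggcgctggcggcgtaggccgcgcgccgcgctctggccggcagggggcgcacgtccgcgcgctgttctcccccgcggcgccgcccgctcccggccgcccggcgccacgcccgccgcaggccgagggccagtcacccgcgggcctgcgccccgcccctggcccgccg

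*Nfe2l2*, chr2:75704614-75704913, minus strand: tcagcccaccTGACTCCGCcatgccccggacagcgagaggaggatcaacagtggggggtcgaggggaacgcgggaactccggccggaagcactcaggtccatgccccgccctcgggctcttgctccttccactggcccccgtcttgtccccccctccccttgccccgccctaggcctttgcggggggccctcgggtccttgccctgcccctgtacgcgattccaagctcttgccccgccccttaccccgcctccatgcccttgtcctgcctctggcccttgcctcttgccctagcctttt

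*Slc7a11*, chr3:50443564-50443863, minus strand: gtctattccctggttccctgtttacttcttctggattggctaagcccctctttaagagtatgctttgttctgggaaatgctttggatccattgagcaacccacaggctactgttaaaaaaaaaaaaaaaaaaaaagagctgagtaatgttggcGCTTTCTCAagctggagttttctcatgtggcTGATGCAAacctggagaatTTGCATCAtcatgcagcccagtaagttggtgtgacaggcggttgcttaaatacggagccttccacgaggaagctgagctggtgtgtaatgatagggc

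The *Srxn1* window held 3 ARE cores and 2 AP-1 motifs, and the match beginning at position -45 from the start site, TGAGTCAGC, belonged to both. AP-1 was present in 5.2% of all windows. The *Slc7a11* window held 1 ARE core and, beginning at positions -66 and -47, 2 copies of TGATGNAA on opposite strands, a motif present in 3.97% of all windows. The annotated genes *Gclm* and *Slc7a11* extend upstream of the start site used here. These matches describe letters in a window and not binding.

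Array brightness differed before scaling. The mean deposited signal of an array lay between 199.7 and 860.9, and in all 4 groups replicate 2 was the dimmest array. The dimmest of all, ΔTrspM LPS replicate 2, had 47.66% of probe sets under a signal of 16, against 16.15% to 28.78% on the other arrays. The ratio of 3′ to 5′ actin signal, a sign of RNA integrity, was higher in ΔTrspM than in control in all 6 same-numbered pairs (0.8812 to 1.169 in control and 1.07 to 1.242 in ΔTrspM). The same ratio for *Gapdh* was lower in ΔTrspM in 4 of the 6 pairs and higher in 2 (0.8301 to 0.8838 in control and 0.6787 to 0.9541 in ΔTrspM). The arrays were brought to a common distribution, and the levels below are log2 signals (log2 of the quantile-normalized signal plus 16). Macrophage markers were bright in all groups, and 8 of 8 LPS response genes rose in both genotypes. In bulk cultures a change in the kinds of cells present and a change of RNA per cell cannot be told apart.

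**Figure D1:**
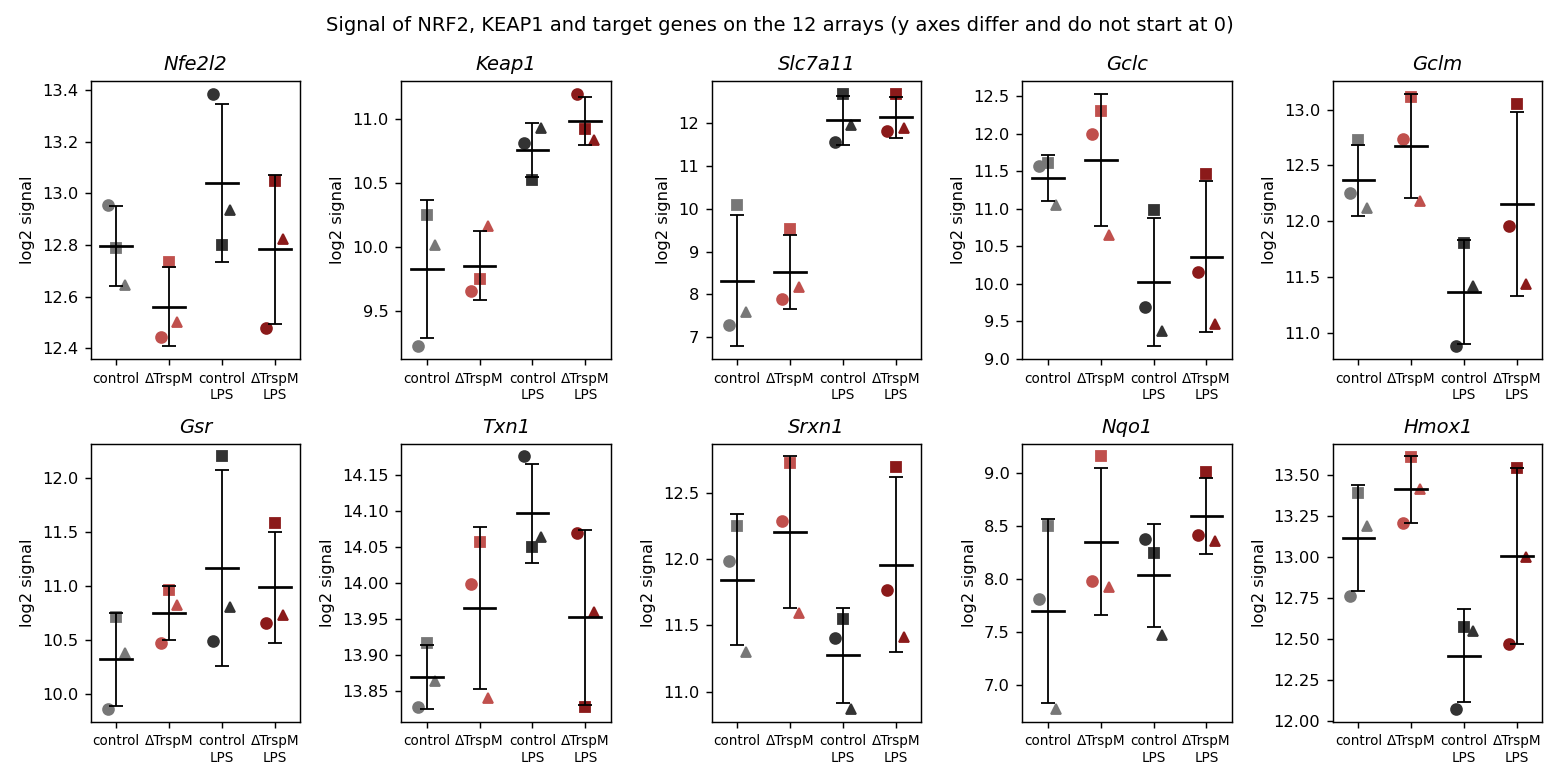
Log2 signal (y axis, a different range in each panel) of the 10 genes on the 12 arrays, by group (x axis). Circles, squares and triangles are replicates 1, 2 and 3, bars are means and whiskers are ± SD (n = 3); *Slc7a11* and *Keap1* lie higher on all LPS arrays than on the unstimulated arrays of their genotype, and squares are the highest points of every group for *Hmox1*, *Gclc*, *Gclm*, *Srxn1*, *Slc7a11* and *Gsr*.

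The first comparison asked how the pathway responded to LPS in control and in ΔTrspM macrophages. *Slc7a11* and *Keap1* rose in both genotypes. The glutamate-cysteine ligase subunits *Gclc* and *Gclm* and the heme oxygenase *Hmox1* were lower on every LPS array than on the unstimulated array of the same replicate number in both genotypes, and they passed the test in control once the replicate number was taken into account. *Nfe2l2* itself did not pass the test. By limma with Benjamini-Hochberg adjustment, 2 of the 10 genes were higher and 0 lower in control, where 7.09% of all genes were called higher and 8.54% lower. In ΔTrspM macrophages 2 were again higher and 0 lower, against 7.29% and 8.51% of all genes.

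*Nfe2l2*, the gene of NRF2, had log2 signals of 12.96, 12.79 and 12.65 in unstimulated controls (replicates 1, 2 and 3, the order used throughout) and of 13.39, 12.80 and 12.94 in LPS-treated controls. In ΔTrspM cells the log2 signals were 12.44, 12.73 and 12.50 unstimulated and 12.48, 13.05 and 12.82 after LPS. The groups overlapped in both genotypes, although each LPS array was at or above its unstimulated partner, by as little as 0.01. The mean log2 change was 0.24 ± 0.22 (SE) in control (limma, adjusted p = 0.5242) and 0.22 ± 0.22 in ΔTrspM (adjusted p = 0.5675). The 95% confidence interval of the change in control ran from 0.85- to 1.66-fold. A second, dimmer *Nfe2l2* probe set changed by 0.72 in control (adjusted p = 0.1812) and by 0.59 in ΔTrspM (adjusted p = 0.279), and on it the LPS arrays of each genotype all lay above the unstimulated ones.

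*Keap1* encodes the adaptor that presents NRF2 to the CUL3 ubiquitin ligase. Its log2 signals were 9.22, 10.25 and 10.01 in unstimulated and 10.82, 10.53 and 10.94 in LPS-treated control cells, and 9.65, 9.75 and 10.16 against 11.20, 10.93 and 10.84 in ΔTrspM cells. No LPS array overlapped an unstimulated array of its genotype. *Keap1* rose 1.91-fold in control (log2 change 0.93 ± 0.27, adjusted p = 0.03987) and 2.19-fold in ΔTrspM (1.13 ± 0.27, adjusted p = 0.01658). The call in control sat near the threshold: without control unstimulated replicate 1, the lowest array, the change was 0.63 with an adjusted p of 0.1409. It also ended without control unstimulated replicate 3, any of the 3 control LPS arrays, ΔTrspM unstimulated replicate 1 or 2, or ΔTrspM LPS replicate 3, where the adjusted p ran up to 0.1093, and under each other scaling (0.6893 with unscaled arrays, 0.1064 with median centring and 0.05452 with trimmed mean scaling). In ΔTrspM the call ended without unstimulated replicate 1 (adjusted p = 0.0709), unstimulated replicate 2 (0.05674) or LPS replicate 1 (0.05297). It also ended with median centring (0.69, adjusted p = 0.1741) and with unscaled arrays, where the dim ΔTrspM LPS replicate 2 stayed dim and the change was -0.0181. The second *Keap1* probe set changed by 0.79 in control (adjusted p = 0.09213) and by 1.16 in ΔTrspM (adjusted p = 0.0189).

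*Slc7a11* encodes the xCT subunit of the cystine/glutamate antiporter, which imports the cystine that limits glutathione synthesis. Unstimulated control arrays read log2 signals of 7.28, 10.07 and 7.60, and LPS-treated control arrays read 11.55, 12.68 and 11.96. In ΔTrspM the log2 signals were 7.89, 9.52 and 8.17 unstimulated and 11.82, 12.68 and 11.88 after LPS. The unstimulated groups spread widely because replicate 2 was high in both, but each LPS array exceeded all the unstimulated ones. *Slc7a11* rose 13.4-fold in control (log2 change 3.74 ± 0.68, 95% interval 4.77- to 37.6-fold, adjusted p = 0.003476) and 12.1-fold in ΔTrspM (3.60 ± 0.68, 4.32- to 34.0-fold, adjusted p = 0.004587). A second probe set gave log2 changes of 4.26 and 3.83 and passed the test in both genotypes. The call stood in every alternative run other than the methods' t-test (a plain unpaired test per gene) in control, where the adjusted p was 0.1166.

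*Gclc* encodes the catalytic subunit of glutamate-cysteine ligase, the first and rate-limiting step of glutathione synthesis. Its log2 signals were 11.57, 11.61 and 11.05 in unstimulated controls and 9.69, 10.99 and 9.37 after LPS. In ΔTrspM cells they were 12.00, 12.31 and 10.64 unstimulated and 10.16, 11.46 and 9.46 after LPS. The control groups did not overlap, whereas in ΔTrspM the unstimulated replicate 3 lay below the LPS replicate 2. The log2 change was -1.39 ± 0.58 in control (adjusted p = 0.1398) and -1.29 ± 0.58 in ΔTrspM (adjusted p = 0.1714), neither of which passed the test. Both passed it in the fit blocked on replicate number (adjusted p = 0.01094 and 0.01558). Without the block, both also passed with unscaled arrays (0.04623 and 0.003175). With median centring only the change in ΔTrspM passed (0.09702 in control and 0.03263 in ΔTrspM), and with trimmed mean scaling neither did (0.1246 and 0.1358). The second *Gclc* probe set gave -1.05 and -0.95.

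*Gclm* encodes the modifier subunit of the same enzyme. Log2 signals were 12.25, 12.73 and 12.11 in unstimulated and 10.88, 11.80 and 11.42 in LPS-treated controls, with no overlap. ΔTrspM arrays read 12.74, 13.11 and 12.18 unstimulated and 11.96, 13.05 and 11.44 after LPS, and these overlapped. *Gclm* was 2.0-fold lower after LPS in control (log2 change -1.0 ± 0.41, adjusted p = 0.1324, and 0.02318 with the block) and 1.44-fold lower in ΔTrspM (-0.52 ± 0.41, adjusted p = 0.4541, and 0.1926 with the block). The second *Gclm* probe set gave -0.73 in control and -0.72 in ΔTrspM, and neither passed the test.

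*Hmox1* encodes heme oxygenase-1, which breaks heme into biliverdin, iron and carbon monoxide. In control cells its log2 signals were 12.76, 13.39 and 13.19 unstimulated and 12.07, 12.58 and 12.55 after LPS, without overlap. In ΔTrspM cells they were 13.21, 13.61 and 13.42 against 12.47, 13.55 and 13.00, and replicate 2 hardly moved. The log2 change in control was -0.71 ± 0.29 (adjusted p = 0.1263, and 0.01695 with the block), and in ΔTrspM it was -0.41 ± 0.29 (adjusted p = 0.4036, and 0.1322 with the block). Under trimmed mean scaling the change in ΔTrspM turned to 0.22.

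*Srxn1* encodes sulfiredoxin, which repairs hyperoxidized peroxiredoxins. Log2 signals of 11.99, 12.25 and 11.30 in unstimulated controls stood against 11.41, 11.55 and 10.87 after LPS. In ΔTrspM cells 12.29, 12.73 and 11.59 stood against 11.77, 12.69 and 11.41. All 6 LPS arrays were below their partners but the groups overlapped, and the log2 change was -0.57 ± 0.40 in control (adjusted p = 0.3905, and 0.05374 with the block) and -0.25 ± 0.40 in ΔTrspM (adjusted p = 0.7447). Its 4 probe sets did not move alike, since the dimmest gave 0.83 in control where the brightest gave -0.57.

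*Nqo1* encodes the quinone reductase most often used as a readout of NRF2. Its log2 signals were 7.81, 8.50 and 6.77 in unstimulated and 8.38, 8.25 and 7.47 in LPS-treated controls. In ΔTrspM cells they were 7.98, 9.16 and 7.93 unstimulated and 8.41, 9.01 and 8.36 after LPS. Replicates 1 and 3 were higher after LPS and replicate 2 was lower in both genotypes, and the mean log2 changes of 0.34 ± 0.46 and 0.24 ± 0.46 were smaller than their errors.

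*Gsr*, glutathione reductase, which regenerates glutathione with NADPH, changed by 0.85 ± 0.43 on the log2 scale in control (adjusted p = 0.2258, and 0.04061 with the block) and by 0.24 ± 0.43 in ΔTrspM (adjusted p = 0.7742). Its second probe set gave 0.30 and 0.07. *Txn1*, thioredoxin-1, was brighter than 99.9% of genes. After quantile normalization it ranged from a log2 signal of 13.83 to 14.18 over the 12 arrays, whereas its deposited signal ran from 8992 to 20229.4. Its change of 0.23 ± 0.16 in control (adjusted p = 0.3962) and -0.01 ± 0.16 in ΔTrspM (adjusted p = 0.9692) did not pass the test. In ΔTrspM the change depended on the scaling, at -0.24 with unscaled arrays, 0.46 with median centring and 0.79 with trimmed mean scaling (limma, adjusted p = 0.07183). The second, dimmer *Txn1* probe set gave 0.56 in control and 0.73 in ΔTrspM.

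**Figure D2:**
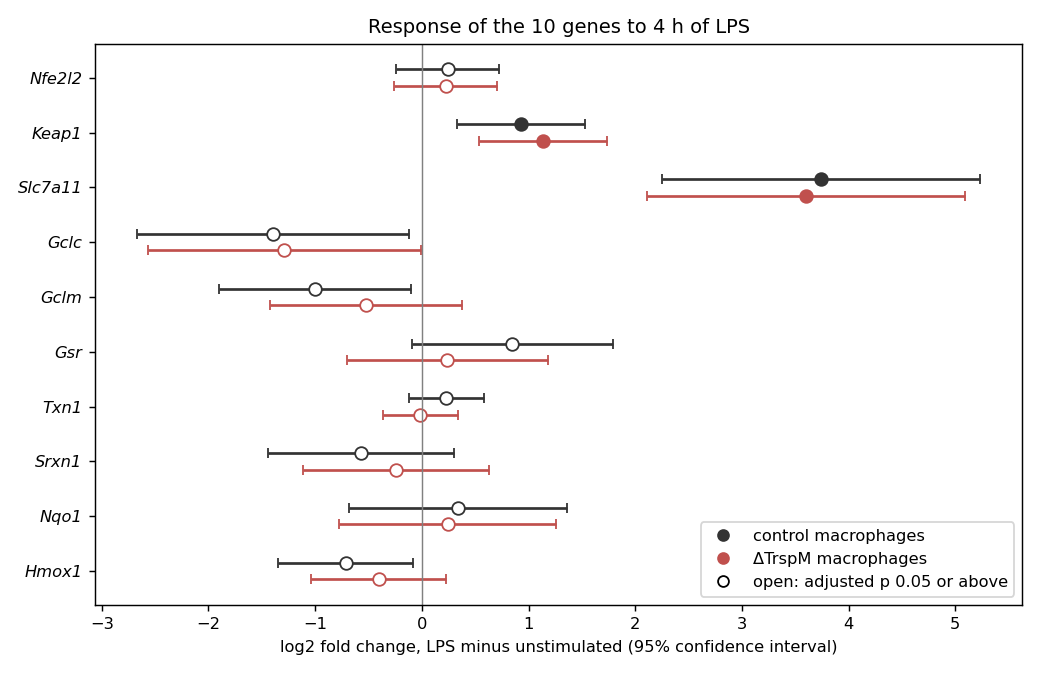
Log2 fold change after 4 h of LPS (x axis) of each of the 10 genes in control and ΔTrspM macrophages (3 LPS arrays against 3 unstimulated arrays each), with 95% confidence intervals. Filled points have an adjusted p under 0.05 (limma, no block); these are *Keap1* and *Slc7a11* in both genotypes.

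Directions after LPS thus differed within the glutathione branch. The cystine importer *Slc7a11* rose while the ligase subunits *Gclc* and *Gclm* were lower in each same-numbered pair. Neither subunit passed the test in the quantile-normalized fit without the block, and *Gclm* in ΔTrspM did not pass with it. With the block, 3 members were higher in control (*Keap1*, *Slc7a11* and *Gsr*) and 3 lower (*Gclc*, *Gclm* and *Hmox1*), against 9.15% and 13.4% of all genes. Leaving the dimmest array out of that fit ended the call of *Gsr* (adjusted p = 0.05329) and added one for *Srxn1* (0.03605). In ΔTrspM the block gave 2 higher and 1 lower (*Gclc*), against 9.28% and 13.2%. In control cells the LPS and unstimulated groups did not overlap for 3 higher members (*Keap1*, *Slc7a11* and *Txn1*) and 3 lower ones (*Gclc*, *Gclm* and *Hmox1*), where 14.7% and 19.4% of all genes were separated in those directions; in ΔTrspM cells 2 members were separated upward and 0 downward, against 14.8% and 19.5%. Over both genotypes, 4 of 10 members were lower in all 6 same-numbered pairs (*Hmox1*, *Gclc*, *Gclm* and *Srxn1*), and 22.1% of all genes were. No difference between the genotypes in the response was found: the interaction was called for 0 of 10 members and 0% of all genes (unadjusted p under 0.05 for 0 members and 3.05% of genes). The interaction estimates ran from -0.61 ± 0.61 for *Gsr* to 0.48 ± 0.58 for *Gclm* on the log2 scale. Beside the responses to LPS, 1 of 7 neutrophil, 1 of 6 mast cell and 1 of 8 stromal markers rose in each genotype. Of all genes, 7.09% rose in control and 7.29% in ΔTrspM. The median log2 changes in control and ΔTrspM were 0.63 and 0.78 for neutrophil, 0.45 and 0.44 for mast cell and -0.02 and 0.57 for stromal markers. The summed neutrophil signal was 4668 to 11700 unstimulated and 7681 to 19200 after LPS. That of mast cell markers was 121.5 to 160.1 unstimulated and 1563 to 2762 after LPS. The part of these cell types in the responses of the 10 genes was not tested.

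The second comparison asked whether the pathway differed between ΔTrspM and control macrophages. No member passed the test. On the probe set kept per gene, after quantile normalization, *Nqo1*, *Hmox1*, *Gclm* and *Srxn1* were nevertheless higher in the ΔTrspM array of all 6 same-numbered pairs. The mean differences were 1.23- to 1.72-fold. On the deposited signals, before scaling, each of the 4 was lower in ΔTrspM in at least 1 pair. In LPS pair 1, control and ΔTrspM read 6124.2 and 4640.2 for *Hmox1* and 3869.6 and 2556.1 for *Srxn1*. For *Gclm*, LPS pair 3 read 3109.8 and 2723.2, and for *Nqo1*, unstimulated pair 1 read 312.8 and 301. *Nqo1* and *Hmox1* are the usual reporters of NRF2, and the activity of NRF2 itself was not measured here. With limma, 0 of 10 members were called in unstimulated cells and 0 after LPS, where 0% and 0.011% of all genes were called (2.39% and 5.78% at an unadjusted p under 0.05, and 0 members in both). Being higher in all 6 pairs was seen for 4 of 10 members and for 4.85% of all genes, and being lower in all 6 for 0 members and 2.4% of genes. It held on the second *Gclm* probe set but on none of the other *Srxn1* probe sets. In unstimulated pair 1, log2 signals of control and ΔTrspM were 11.41 and 11.32 on one *Srxn1* probe set and 10.17 and 10.04 on another. On the dimmest *Srxn1* probe set, LPS pair 3 read 7.80 and 5.27. On the probe set kept per gene, the groups did not separate for any member in either condition, where 7.32% of all genes separated unstimulated and 9.14% after LPS. On other, dimmer probe sets the unstimulated groups separated for *Nfe2l2* (lower in ΔTrspM) and for *Gclc* and *Srxn1* (higher). The LPS groups separated on another *Srxn1* probe set (higher). The group mean was higher in ΔTrspM for 9 members unstimulated (56.5% of all genes) and for 7 after LPS (55.3%), and after LPS that count was 2 without scaling, 5 with median centring and 9 with trimmed mean scaling. The 6 pairs rest on 3 replicate numbers, each giving a pair with and a pair without LPS.

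*Hmox1* had log2 differences, ΔTrspM minus control, of 0.45, 0.22 and 0.23 in unstimulated pairs 1, 2 and 3 and of 0.40, 0.97 and 0.45 after LPS. The mean was 0.30 ± 0.29 unstimulated (95% interval 0.79- to 1.91-fold) and 0.61 ± 0.29 after LPS (0.98- to 2.36-fold). Averaged over both conditions it was 0.45 ± 0.20, with an unadjusted limma p of 0.04791 and an adjusted p of 0.9632 (0.3598 with the block); no other member reached an unadjusted p of 0.05 in that fit, where 4.88% of all genes did and 0.022% were called.

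*Srxn1* was higher in ΔTrspM by 0.36 ± 0.40 on the log2 scale unstimulated and by 0.68 ± 0.40 after LPS. *Gclm* was higher by 0.31 ± 0.41 and 0.79 ± 0.41, and its second probe set gave 0.67 and 0.68. *Nqo1* was higher by 0.66 ± 0.46 and 0.56 ± 0.46, with single pairs from 0.03 to 1.16. None of these differences passed the test after adjustment, the smallest adjusted p over the 10 members being 0.8624 after LPS. With the arrays left unscaled, and ΔTrspM LPS replicate 2 thus dim, the difference after LPS turned to -0.11 for *Srxn1* and to -0.35 for *Nqo1*.

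Averaged over both conditions and blocked on the replicate number, *Srxn1*, *Gclm*, *Nqo1* and *Hmox1* had unadjusted limma p-values between 0.003045 (*Srxn1*) and 0.01531 (*Gclm*). Their adjusted p-values lay between 0.3238 and 0.4437, so the block changed no call.

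The other members did not share a direction over the pairs. *Nfe2l2* was lower in ΔTrspM in 5 of 6 pairs (mean log2 differences of -0.24 ± 0.22 unstimulated and -0.26 ± 0.22 after LPS). *Gclc* differed by 0.24 ± 0.58 and 0.34 ± 0.58 and *Slc7a11* by 0.21 ± 0.68 and 0.06 ± 0.68, with 95% intervals whose upper ends lay between 2.86- and 3.24-fold. *Keap1* differed by 0.03 ± 0.27 and 0.23 ± 0.27, *Txn1* by 0.10 ± 0.16 and -0.14 ± 0.16, and *Gsr* by 0.43 ± 0.43 unstimulated and -0.18 ± 0.43 after LPS. Over the 10 genes the median log2 difference was 0.27 unstimulated and 0.29 after LPS, beside 0.04 and 0.04 over all genes.

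Other measures were compared between the genotypes beside these genes. The 8 stromal markers had median log2 differences of 0.66 unstimulated and 1.09 after LPS, and 0 of 8 were called. Their summed signal ran from 567.1 to 8032 in unstimulated controls and from 1138 to 9253 in unstimulated ΔTrspM cells, and from 4684 to 5276 and from 3313 to 10650 after LPS. The actin 3′ to 5′ ratio, as given above, was higher in ΔTrspM in each pair, whereas that of *Gapdh* was lower in 4 of 6. The part of any of these in the differences of *Nqo1*, *Hmox1*, *Gclm* and *Srxn1* was not tested. The 8 macrophage markers differed by a median of -0.12 and -0.17.

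**Figure D3:**
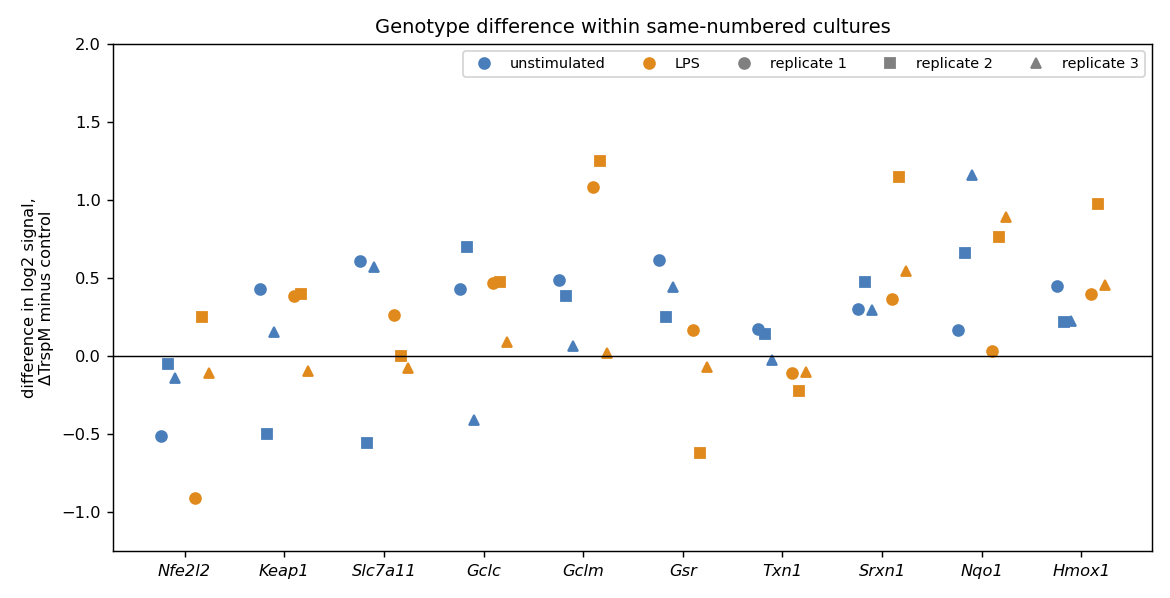
Difference in log2 signal between the ΔTrspM and the control array of the same replicate number (y axis) for each of the 10 genes (x axis), unstimulated (blue) and after LPS (orange). Circles, squares and triangles are pairs 1, 2 and 3; all 6 points lie above 0 for *Nqo1*, *Hmox1*, *Gclm* and *Srxn1*.

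The members also varied with the replicate number. On the probe set kept per gene, replicate 2 was the highest array of its group in all 4 groups for 6 of 10 members (*Hmox1*, *Gclc*, *Gclm*, *Srxn1*, *Slc7a11* and *Gsr*). This held for 3.85% of all genes. It did not hold on the second *Gsr* probe set, where replicate 2 was the lowest array of unstimulated ΔTrspM (log2 signal 10.53, against 10.86 and 10.91). Replicates 1 and 3 were the highest in all 4 groups for 0 members, against 1.89% and 7.24% of genes. The excess of replicate 2 over the mean of the other replicates was 0.83 to 2.63 on the log2 scale for *Slc7a11* over the 4 groups, 0.30 to 1.65 for *Gclc* and 0.26 to 0.81 for *Hmox1*. *Nqo1* was highest in replicate 2 in 3 of 4 groups, whereas *Nfe2l2* was in 2 and *Keap1* in 1.

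Of 49 other pathway genes, 9 showed the same pattern (*Mafg*, *Sqstm1*, *Me1*, *Txnrd1*, *Gsta3*, *Gstm1*, *Akr1b8*, *Abcc1* and *Osgin1*), 7 of them from the lists of other NRF2 targets. It was also seen in 3 of 8 LPS response genes (*Tnf*, *Cxcl1* and *Cxcl2*; all of these but *Txnrd1* were named after their values were seen) and in 0 of 8 stromal and 0 of 7 neutrophil markers. Replicate 2 was also the dimmest array of each group, and the pattern was found for 5 members with median centring (3.27% of all genes), for 5 with trimmed mean scaling (3.72%) and for 0 without scaling (0.055%). The part of array brightness in it was not tested.

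*Txnrd1*, thioredoxin reductase 1, is an NRF2 target that is itself a selenoprotein. Its log2 change after LPS was 0.26 ± 0.21 in control (adjusted p = 0.4819) and 0.20 ± 0.21 in ΔTrspM (adjusted p = 0.5928), and its genotype differences were 0.04 unstimulated and -0.01 after LPS.

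Further genes of the pathway were taken from lists by role, and 49 of 53 were measured. In control cells 4 rose and 7 fell after LPS (7.09% and 8.54% of all genes did), and in ΔTrspM cells 4 rose and 3 fell (7.29% and 8.51% of all genes), with medians of -0.14 in both (all genes -0.05 and -0.03). With the block the counts were 7 and 13 in control and 5 and 9 in ΔTrspM, against 9.15% and 13.4% and 9.28% and 13.2% of all genes. Which genotype had more falls depended on the scaling. With median centring 4 fell in control and 7 in ΔTrspM, with unscaled arrays 3 and 9, and with trimmed mean scaling 3 and 3. None was called between the genotypes, the median difference being 0.16 unstimulated and 0.16 after LPS.

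The partners and regulators of NRF2 gave 3 higher and 1 lower of 14 in each genotype, beside the shares of all genes just given. *Maff* and *Mafk*, small MAF proteins that pair with NRF2, rose by 2.69 ± 0.51 and 1.37 ± 0.28 on the log2 scale in control (adjusted p = 0.004353 and 0.007311) and by 2.40 ± 0.51 and 1.65 ± 0.28 in ΔTrspM (adjusted p = 0.008814 and 0.002811). *Bach1*, the repressor that occupies AREs, fell by 1.47 ± 0.25 in control (adjusted p = 0.002215) and by 1.57 ± 0.25 in ΔTrspM (adjusted p = 0.001624); averaged over its probe sets the change was -1.13 (adjusted p = 0.1419) and -1.29 (0.0939), neither past the threshold. With unscaled arrays the calls of *Mafk* ended in both genotypes (adjusted p = 0.4124 and 0.6081), as did that of *Bach1* in control (0.06525) and that of *Maff* in ΔTrspM (0.08028). *Nfe2l1*, which encodes the related factor NRF1, rose in ΔTrspM (0.87 ± 0.23, adjusted p = 0.0238, but 0.2137 with median centring, and a change of -0.18 with unscaled arrays). In control it changed by 0.63 ± 0.23 (adjusted p = 0.08743, and 0.04006 with the block). *Syvn1*, an endoplasmic reticulum ubiquitin ligase and the fifth called gene of this list, named after its values were seen, rose in control (0.60 ± 0.18, adjusted p = 0.0415) and changed by 0.51 ± 0.18 in ΔTrspM (adjusted p = 0.0809, and 0.03807 with the block). Its call in control ended under each other scaling (adjusted p = 0.05022 to 0.8301).

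Among 35 other NRF2 targets, 1 rose and 6 fell in control, and 1 rose and 2 fell in ΔTrspM, against the same shares of all genes. The gene that rose was *Ggct*, an enzyme of the γ-glutamyl cycle, by 1.10 ± 0.16 in control (adjusted p = 0.001125) and 0.67 ± 0.16 in ΔTrspM (adjusted p = 0.01816), although in ΔTrspM the mean of its probe sets changed by -0.018 and its own change was -0.58 with unscaled arrays. Its call in ΔTrspM also ended with median centring (adjusted p = 0.764) and trimmed mean scaling (0.2332), and that in control with unscaled arrays (0.6693). *Idh1*, a source of cytosolic NADPH, fell by 0.73 ± 0.16 (adjusted p = 0.01036) and 0.59 ± 0.16 (adjusted p = 0.03009). Neither call of *Idh1* stood under another scaling, where the adjusted p was 0.06806 to 0.5573 in control and 0.05466 to 0.09482 in ΔTrspM. *Txnip*, which binds thioredoxin, fell by 1.25 ± 0.36 in ΔTrspM (adjusted p = 0.03505) and changed by -1.05 ± 0.36 in control (adjusted p = 0.07162, and 0.01076 with the block).

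The heme and iron genes *Slc40a1* (ferroportin, the iron exporter) and *Slc48a1* (a heme transporter) fell in control, by 1.80 ± 0.47 (adjusted p = 0.02416) and 0.81 ± 0.22 (adjusted p = 0.03037). Their changes in ΔTrspM were -0.97 ± 0.47 and -0.51 ± 0.22 and did not pass the test. *Cbr3*, a carbonyl reductase, *Glrx*, glutaredoxin, and *Sod1*, the cytosolic superoxide dismutase, also fell in control (-1.68, -0.69 and -0.71, adjusted p = 0.01608, 0.04669 and 0.04709) and changed by -1.29, -0.42 and -0.43 in ΔTrspM (adjusted p = 0.05221, 0.2137 and 0.2219). In ΔTrspM *Cbr3* also passed with the block (adjusted p = 0.02804) and under each other scaling (0.007804 to 0.02847). There *Slc40a1* passed with unscaled arrays (0.01009) and median centring (0.01922) but not with trimmed mean scaling (0.08397). In control the calls of *Glrx*, *Sod1* and *Slc48a1* ended under each other scaling (adjusted p = 0.2062 to 0.6241, 0.2266 to 0.632 and 0.1389 to 0.403), whereas those of *Slc40a1* and *Cbr3* stood under all 3. The interaction, which tests whether these responses differ between the genotypes, was called for none of them.

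When each of the 12 arrays was left out in turn, the calls of *Maff*, *Mafk* and *Bach1* stood in both genotypes, as did those of *Ggct* and *Idh1* in control. The others were lost in some of the 12 fits. In control *Glrx* was lost in 12, *Sod1* in 10, *Syvn1* in 9, *Slc48a1* in 6, *Slc40a1* in 5 and *Cbr3* in 2. In ΔTrspM *Idh1* and *Txnip* were lost in 5, *Nfe2l1* in 4 and *Ggct* in 2. The largest adjusted p in these fits was 0.1596, for *Sod1*. The count that fell in control ranged from 2 to 7 over them.

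**Figure D4:**
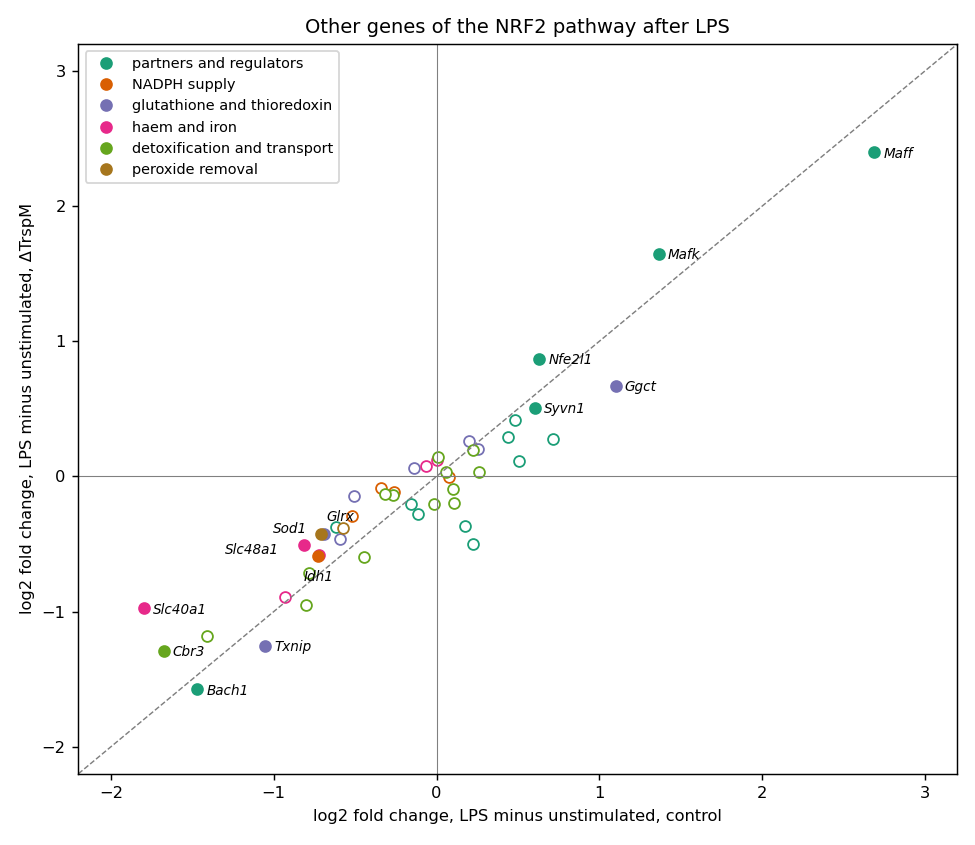
Log2 fold change after LPS in control (x axis) and ΔTrspM (y axis) macrophages for 49 other genes of the pathway, coloured by role; the dashed line marks equal change. Filled, named points passed an adjusted p of 0.05 in at least 1 genotype; *Maff* lies farthest to the upper right and *Bach1* to the lower left.

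The genes whose signal over the 12 arrays was most like that of *Nfe2l2* were *Ces2e*, *Usp15*, *Klkb1*, *Marveld2* and *Zdhhc5*, with Pearson correlations of 0.85, 0.84, 0.83, 0.82 and 0.82 across arrays that share their scaling and replicate sets. The 9 other members correlated with *Nfe2l2* at between -0.42 (*Hmox1*) and 0.42 (*Slc7a11*), so none of them was among its nearest neighbors.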

How the data were processed

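Total RNA of 12 BMDM cultures was hybridized to Affymetrix GeneChip mouse arrays. The values deposited by the authors are linear probe set intensities; the methods name Expression Console and normalization, and how probes were summarized into probe sets was not stated in them. Because the values were linear and differed in scale, they were quantile-normalized here, 16 was added and log2 was taken, so folds of dim genes are understated. Of 45037 probe sets, 34945 had 1 gene symbol, 932 several and 9160 none; the brightest on average stood for each of 18193 genes, and _s_at probe sets can match several transcripts. limma 3.58.1 (R 4.3.3; lmFit, eBayes) was fitted to all 12 arrays without a covariate, with Benjamini-Hochberg adjustment over all genes and a threshold of 0.05; the step was tested on simulated data. Differences are ± SE unless marked, and 3 arrays a group limit the precision.

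Groups and replicate numbers came from the labels. Same-numbered arrays of the groups compared deviated together in 12 of 12 pairs (r = 0.1263 to 0.4425). Over all groups, same-numbered pairs ran from r = 0.06676 to 0.4425, and 17 of 18 were over 0.1. Pairs of other numbers ran from -0.386 to 0.07274, so the ranges overlapped, and 0 of 36 were over 0.1. The numbers were therefore taken to pair arrays, and what same-numbered arrays shared was not given in the labels. The fit with the replicate number as a block is given for a named gene where it changes the call. No arrays held identical values.

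Members and lists were chosen with earlier results of these data known. Named genes are the 10 members, *Txnrd1*, up to 4 called genes of each list with the largest LPS change, and the 5 genes correlating best with *Nfe2l2*; *Syvn1* and the genes listed for the replicate 2 pattern were named after their values were seen. *G6pdx*, *Ftl1*, *Prdx1* and *Prdx6* were not analysed here. Promoter windows of *Hmox1*, *Gclc* and *Gsr* were not used here. Alternatives were other scalings, pseudocounts of 1 and 64, a floor of 6 on the mean log2 signal, other probe sets, only the arrays compared, a trended robust prior, the block, each array left out and the methods' t-test; the block without the dimmest array was added after seeing the data.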

Additional observations from a re-analysis of the deposited data

How the results depend on the processing

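A ΔTrspM LPS array was dim, and with no scaling between arrays the median log2 change of all genes was -0.73 for LPS in ΔTrspM and -0.60 for genotype after LPS. Of the members higher after LPS in control (2), 1 was left with no scaling, median centring, trimmed mean scaling, a pseudocount of 1 or only the arrays compared, 0 with the methods' t-test and 1 to 2 without single arrays; those lower (0) became 1 with no scaling, 3 with the replicate block and 4 with the block and without the dimmest array. In ΔTrspM those higher (2) became 1 with no scaling, median centring or the t-test and 1 to 2 without single arrays, and those lower (0) became 1 with no scaling, median centring, the block, or the block without the dimmest array. No genotype call of a member was gained in any alternative, block included. Genes called lower after LPS in ΔTrspM numbered 1548, 3063 with no scaling and 2648 with median centring; in control 1290 rose and 1554 fell, against 398 and 495 with no scaling, 427 and 397 with the t-test and 1664 and 2444 with the block.

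Log2 changes of these genes changed sign, among them the called rises of *Keap1*, *Nfe2l1* and *Ggct* in ΔTrspM with no scaling and that of *Ggct* with the mean of probe sets; the cause was not tested. With no scaling, LPS in ΔTrspM gave *Nfe2l2* -0.38, *Keap1* -0.0181, *Nqo1* -1.04, *Gsr* -0.86, *Txnrd1* -0.22, *Nfe2l1* -0.18, *Syvn1* -0.60 and *Ggct* -0.58, LPS in control gave *Nqo1* -0.19, genotype unstimulated gave *Keap1* -0.11, and genotype after LPS gave *Keap1* -0.75, *Nqo1* -0.35, *Gclc* -0.60, *Srxn1* -0.11 and *Slc7a11* -0.81. With median centring, LPS in ΔTrspM gave *Nqo1* -0.34, *Gsr* -0.16 and *Txn1* 0.46, genotype unstimulated *Keap1* -0.0131, and genotype after LPS *Keap1* -0.24, *Gclc* -0.0931, *Slc7a11* -0.30 and *Txn1* 0.10. With trimmed mean scaling, LPS in ΔTrspM gave *Nqo1* -0.0836, *Hmox1* 0.22 and *Txn1* 0.79, genotype unstimulated *Keap1* -0.0013, and genotype after LPS *Nfe2l2* 0.0106, *Txn1* 0.51 and *Txnrd1* 0.40. With the mean of probe sets, LPS in ΔTrspM gave *Txn1* 0.36 and *Ggct* -0.018, genotype unstimulated *Keap1* -0.14 and *Txnrd1* -0.15, and genotype after LPS *Slc7a11* -0.0075 and *Txn1* 0.24. Other probe sets of *Srxn1* gave 0.83 for LPS in control, 0.31 for LPS in ΔTrspM and -0.50 for genotype after LPS, and for genotype after LPS those of *Gsr*, *Slc7a11* and *Txn1* gave 0.0927, -0.0774 and 0.62. The other *Keap1* probe set gave -0.32 for genotype unstimulated, and that of *Txn1* 0.73 for LPS in ΔTrspM. With the replicate block and without the dimmest array *Txn1* gave 0.0647 for LPS in ΔTrspM.

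Leaving out single arrays changed the sign of *Nqo1* for LPS in control (-0.12 to 0.74), and for LPS in ΔTrspM of *Srxn1* (-0.61 to 0.0274), *Gsr* (-0.0591 to 0.40) and *Txn1* (-0.076 to 0.0493). It did so for genotype unstimulated in *Keap1* (-0.28 to 0.24), *Gclc* (-0.0895 to 0.74), *Slc7a11* (-0.31 to 1.09) and *Txnrd1* (-0.11 to 0.20), and for genotype after LPS in *Gclc* (-0.20 to 0.83), *Slc7a11* (-0.22 to 0.37), *Gsr* (-0.51 to 0.34) and *Txnrd1* (-0.16 to 0.0721).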
